A study of Mus musculus with 3 samples.

Results

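Of 31850 genomic regions with signal for SRF, the serum response factor, in mouse cornea, 8472 (26.6%) lay deep inside genes. A region was placed here when it overlapped no CpG island, had no gene start within 1000 bp, and lay inside at least 1 gene at more than 10000 bp from the start of every gene that held it. The signal came from chromatin immunoprecipitation with sequencing (ChIP-seq) of whole cornea from mice of about 8 weeks on a mixed background. A library was titled mutant, from Dstn-corn1 mice, which lack functional destrin, a protein that severs and depolymerizes actin filaments. Another was titled wildtype, and the last was an input without antibody, of which no values were used. The growth protocol in the labels names the mutant mice for all 3 libraries, so the genotype of each library rests on its title. The number of animals behind each library was not stated in the labels.

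SRF binds DNA as a dimer at the CArG box, a short element with an A/T-rich core between CC and GG. Its partners decide which signals it answers: the myocardin-related factors (MRTFs) are held in the cytoplasm by monomeric actin and enter the nucleus when actin polymerizes, and the ternary complex factors answer growth factor signalling. Classical SRF sites lie close to the starts of actin, smooth muscle and immediate early genes. Sites deep inside genes can act as enhancers or as starts of shorter transcripts, and the distances used here do not tell these apart from sites of unknown use.

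For a small set of members some sequence was known, because they overlapped a window around a transcript start annotated in RefSeq. The authors' gene table did not place these starts within 1000 bp. RefSeq (GRCm38.p6) windows around gene starts were overlapped by 70 members (0.826%, exact 95% interval 0.645 to 1.04), compared with 72.4% of the regions within 1 kb of a gene start. Any overlap counted, and these members are called over a start here. Some touched only part of the window and did not reach the start, such as the member inside Gab1 with 18 bases. Part of the searched sequence can therefore lie outside the member. For 32 of the 70 the window belonged to another start of the same gene, and for 38 it belonged to another gene, a long noncoding RNA in 36 cases. The CArG box was present in the windows of 4 of these members. The 250 bases before each of these starts are shown because they hold the element SRF recognizes, written 5′ to 3′ on the strand of the transcript with the CArG box in capitals and identified by host gene, RefSeq start and position.
Dixdc1 (Gm51674 start, chr9:50697621-50697870, plus strand): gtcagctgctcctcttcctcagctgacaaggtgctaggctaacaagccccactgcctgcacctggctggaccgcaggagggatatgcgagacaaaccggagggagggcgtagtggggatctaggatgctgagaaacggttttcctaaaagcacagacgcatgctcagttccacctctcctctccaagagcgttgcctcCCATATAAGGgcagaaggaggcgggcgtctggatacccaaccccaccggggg
Lima1 (Lima1 start, chr15:99820150-99820399, minus strand): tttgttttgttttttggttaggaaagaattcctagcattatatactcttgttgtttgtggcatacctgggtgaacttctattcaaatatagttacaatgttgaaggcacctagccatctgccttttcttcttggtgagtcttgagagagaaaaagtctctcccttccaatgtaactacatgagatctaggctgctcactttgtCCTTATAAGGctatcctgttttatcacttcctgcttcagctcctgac
Ncoa7 (Ncoa7 start, chr10:30655868-30656117, minus strand): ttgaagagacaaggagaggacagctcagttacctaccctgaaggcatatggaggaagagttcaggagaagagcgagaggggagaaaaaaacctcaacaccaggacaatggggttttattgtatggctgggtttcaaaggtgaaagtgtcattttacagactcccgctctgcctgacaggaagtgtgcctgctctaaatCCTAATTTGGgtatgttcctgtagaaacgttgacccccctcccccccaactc
Klf8 (Klf8 start, chrX:153359363-153359612, plus strand): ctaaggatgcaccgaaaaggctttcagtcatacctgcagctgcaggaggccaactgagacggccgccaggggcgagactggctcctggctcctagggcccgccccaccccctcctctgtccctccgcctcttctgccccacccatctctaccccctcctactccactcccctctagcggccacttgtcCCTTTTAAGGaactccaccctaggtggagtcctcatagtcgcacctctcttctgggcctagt

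The box ended 42 bases before the start inside Dixdc1, 37 bases before the Lima1 start, 42 before the Ncoa7 start and 52 before the Klf8 start. Dixdc1 encodes a Wnt pathway protein that binds actin, and its box lay upstream of Gm51674, a noncoding transcript. Lima1 encodes EPLIN, which bundles actin filaments, and Ncoa7 encodes a nuclear receptor coactivator. Klf8 encodes a zinc finger transcription factor. The values are peak heights, the deposited maximum of the signal within a region in each library. In the region inside Dixdc1 the height was 39 in the mutant library and 37 in the wildtype library. The Lima1 region reached 22 in mutant and 16 in wildtype. The Ncoa7 region reached 19 in mutant and 14 in wildtype. Klf8, on chromosome X, had the opposite order, with 3 in mutant and 11 in wildtype and no mutant interval.

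Thus 3 of the 4 members with a CArG box were higher in the mutant library, compared with 1 of the 66 other members over a RefSeq start. Of all members 186 were higher in mutant (2.20%), and of all regions 3.69%. The median log2 ratio of mutant over wildtype height, with 1 added to each, was 0.24 for the 4 and -1.43 for the 66. The median wildtype height also differed, at 15 for the 4 and 32 for the 66. Of all members with a wildtype height under 15, 81.8% were lower in mutant, and of those at 30 to 59, 99.8%. The 4 and the 66 were not compared at like height. The other locations did not share 1 order. Within 1 kb of a gene start 17 of 67 regions over a window with a CArG box were higher in mutant (25.4%), and 8.26% of the 5170 without one. Their median log2 ratios were -0.50 with the box and -0.78 without it. Among regions with no assigned gene 0 of 4 with the box and 1.71% of the 117 without it were higher in mutant. The only region with the box among those inside a gene near its start was lower in mutant, and 3.51% of the 57 without it were higher. CpG island regions away from starts had 1 of 6 with the box (16.7%) and 9.09% of 242 without it, and gene-flanking regions had no box. The set of 4 is too small to describe the members at large, and these counts carry no test. A match says only that the letters are present.

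The CTCF core motif, the element bound by the insulator protein CTCF, was held by the windows of 7 members, and the upstream sequences of the 3 members with the highest mean height among those that hold it there are shown with the motif in capitals.
D630023F18Rik (Gm36358 start, chr1:65112033-65112282, plus strand): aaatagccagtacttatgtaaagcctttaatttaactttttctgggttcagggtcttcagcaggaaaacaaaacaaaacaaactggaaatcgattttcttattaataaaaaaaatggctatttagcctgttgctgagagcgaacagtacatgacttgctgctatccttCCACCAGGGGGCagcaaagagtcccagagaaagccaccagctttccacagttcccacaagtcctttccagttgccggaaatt
Tbc1d16 (Gm11753 start, chr11:119190547-119190796, minus strand): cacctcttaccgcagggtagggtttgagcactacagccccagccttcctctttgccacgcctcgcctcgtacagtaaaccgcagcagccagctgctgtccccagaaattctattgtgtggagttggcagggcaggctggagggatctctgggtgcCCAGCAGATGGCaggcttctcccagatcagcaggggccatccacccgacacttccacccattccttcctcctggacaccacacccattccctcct
Stab2 (Gm16271 start, chr10:86971891-86972140, plus strand): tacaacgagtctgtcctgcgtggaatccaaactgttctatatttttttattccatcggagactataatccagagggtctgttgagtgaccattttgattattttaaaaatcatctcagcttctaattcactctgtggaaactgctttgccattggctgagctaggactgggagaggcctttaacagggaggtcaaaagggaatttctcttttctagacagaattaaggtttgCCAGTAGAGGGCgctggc

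Of the 74 windows under members (some members overlapped more than 1), 4 held a CArG box (5.41%, exact 95% interval 1.49 to 13.3), compared with 1.63% of all 32851 RefSeq windows. The CTCF core was held by 9 of the 74 (12.2%, 5.71 to 21.8), compared with 0.557% of all windows and 1.52% of the 6991 windows under regions within 1 kb of a gene start. The share was 10.2% under regions with no assigned gene and 17.6% under regions that flank genes. It was 4.55% (3 of 66) under regions inside a gene near its start and 2.91% under CpG island regions away from starts. The 9 windows belonged to 7 members, since 3 lay under the same member inside Nrap. Of the other motifs searched, that of AP-1 was held by 7 (9.46%, compared with 5.20% of all windows), that of TEAD by 14 (18.9%, 14.5%), that of GATA factors by 6 (8.11%, 11.2%) and that of NF-Y by 6 (8.11%, 17.1%). The ETS, E-box and CRE motifs were held by at most 2 windows each. Both strands of the whole window, 300 bases long, were searched. The 7 members with a CTCF core had wildtype heights from 48 to 59 and a median mutant height of 19. Their median log2 ratio was -1.46 and none was higher in mutant, compared with 2.20% of all members. The region inside D630023F18Rik reached 40 in mutant and 56 in wildtype. The region inside Tbc1d16, which encodes a Rab-regulating protein, reached 21 and 57, and that inside Stab2, a scavenger receptor gene of endothelium, 14 and 59. In the plot of members over RefSeq starts the CTCF group lies in a narrow range of wildtype height and below the line of equal height.

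**Figure D1:**
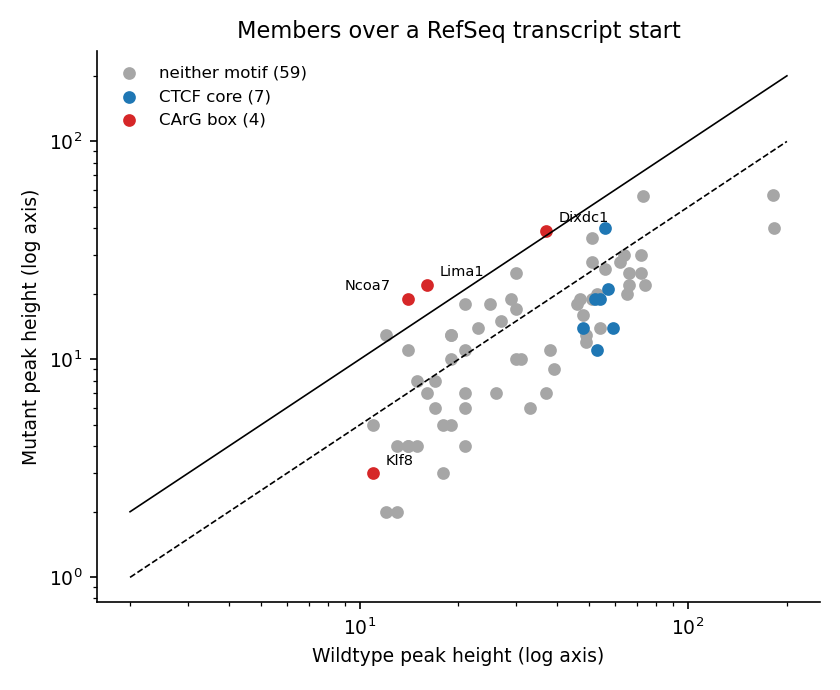
Mutant against wildtype peak height (both log axes) of the 70 members that overlap a RefSeq start window. Points are members, the solid line marks equal height and the dashed line a mutant height of 50% of wildtype; 3 of the 4 members with a CArG box sit above the solid line and the 7 with a CTCF core sit below it.

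The next comparison asked how far the signal deep inside genes differed between the genotypes. The mutant library was lower at nearly all members. The median height over the 8472 members was 13 in mutant (quartiles 8 and 19) and 29 in wildtype (quartiles 19 and 43). The median log2 ratio was -1.20 (95% interval -1.21 to -1.18), and 97.4% of members were lower in mutant, compared with 95.4% of all regions. The regions near the start of a gene that held them had a median of -1.13, regions with no assigned gene -1.26, and regions within 1 kb of a gene start -0.81. With 1 library per genotype, genotype and library cannot be told apart, no test was made, and the intervals cover counting over regions and not variation between animals. Read totals were not used here, and whether they entered the deposited values is not stated. How deep the libraries were sequenced is therefore unknown here.

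At least 2-fold higher in wildtype were 5562 members (65.7%), compared with 59% of all regions. At least 2-fold higher in mutant were 43 members (0.508%), compared with 0.414% of all regions, so the members' share was near that background. Scaling the libraries to a common median over the regions called in both moved the median of all regions to -0.09 and that of the members to -0.18. After scaling, 994 members passed 2-fold towards wildtype (11.7%, compared with 9.30% of all regions) and 222 passed it towards mutant (2.62%, compared with 4.58% of all regions). Scaling multiplies each mutant height by the same factor, so it moved members and all regions nearly alike, whereas the split between the directions depended on it.

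Intervals were called by the authors in each library separately, and 3681 members had one in both libraries (43.4%, compared with 48.9% of all regions). A wildtype interval alone was present at 4663 members (55.0%, compared with 49.0% of all). A mutant interval alone was present at 128 members (1.51%, compared with 2.10% of all). Counting both kinds, 45.0% of members and 51.0% of all regions had a mutant interval. The members called in both had median heights of 20 in mutant and 43 in wildtype, and those called in wildtype alone 8 and 22. Those called in mutant alone had median heights of 14 and 9. A missing call therefore did not mean missing signal: 12 members were listed at 0 in mutant and 0 were listed at 0 in wildtype. One of the 12 was the member inside Dstn, the mutated gene, with a wildtype height of 11. The others lay inside Hdac9, Tmem63c, Dnahc11, Nalcn, Ndst3, Emcn, Zfyve9, Csmd2, Dlg2, Myo16 and Cntn5, with wildtype heights from 10 at Myo16 to 25 at Hdac9. The plot of heights shows the whole set, with the named members in colour.

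**Figure D2:**
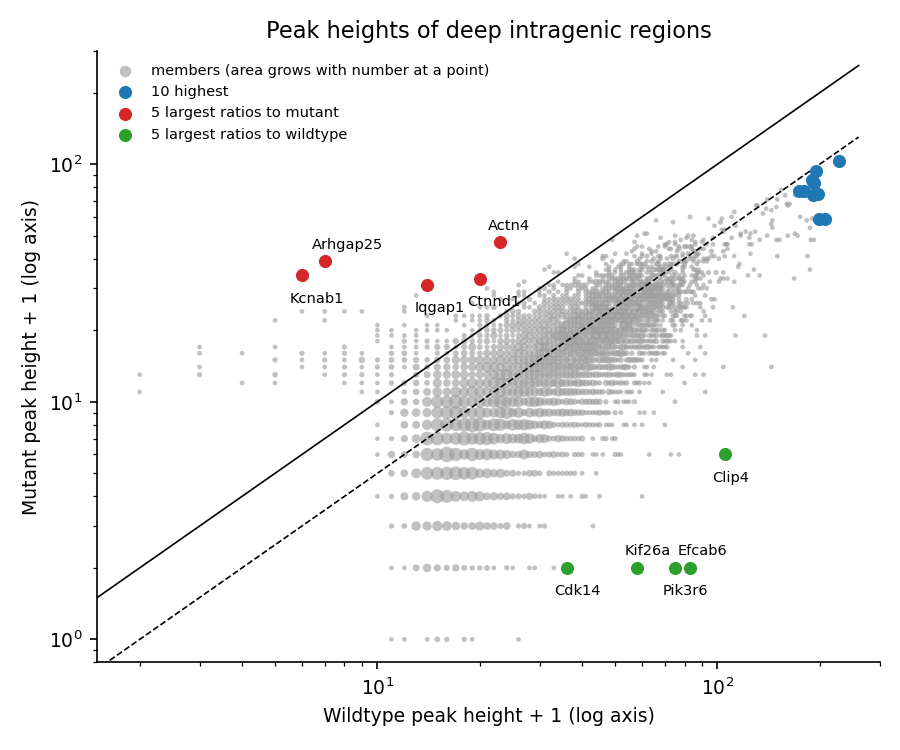
Mutant against wildtype peak height plus 1 (both log axes) for the 8472 members, with the named members coloured. The solid line marks equal height and the dashed line 50%; 97.4% of the members lie below the solid line, and the 5 members with the largest ratios to mutant lie above the solid line.

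Calls depend on height, so members were set beside other regions of like wildtype height. Among members with a wildtype height under 15, 19.1% had a mutant interval. The share was 20% at heights of 15 to 29, 66.9% at 30 to 59 and 94.0% at 60 and above. Regions within 1 kb of a gene start had a mutant interval more often in each of these classes, at 38.1%, 46.4%, 82.1% and 98.1%. Their exact intervals did not overlap those of the members in any class. Every region has an interval in at least 1 library, so the class under 15 also holds regions present only through their mutant interval. These were 14.7% of its members and 20.7% of its regions within 1 kb of a gene start. Called in both were 4.43% and 17.3%. The shares and median ratios of that class include the regions called in mutant alone. The median log2 ratio of the members went from -0.91 in the lowest class through -1.17 and -1.23 to -1.32 in the highest. That of the regions near gene starts went from -0.26 through -0.68 and -1.04 to -1.31. The difference in median ratio between these 2 locations was therefore present at low wildtype height and nearly absent at high wildtype height. At 60 and above the shares with a mutant interval still differed. The wildtype medians in that class were unlike, at 70 for members and 87 for regions within 1 kb of a gene start. Regions with no assigned gene had shares of 16.4%, 17.5%, 64.6% and 94.3%, and regions near the start of their gene 18.9%, 23.0%, 72.6% and 97.6%.

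**Figure D3:**
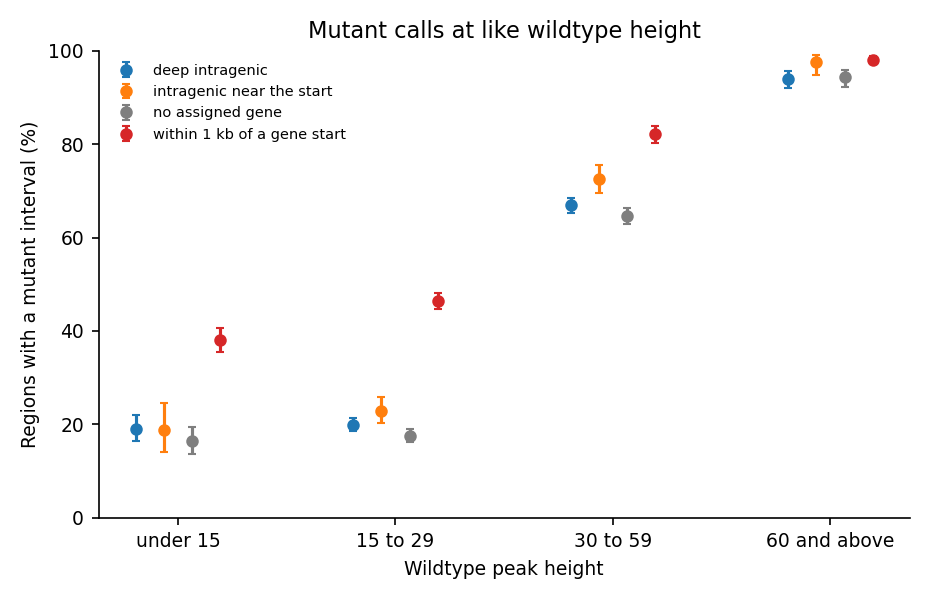
Share of regions with a mutant interval (%) by wildtype peak height, for members and 3 other locations, with exact 95% intervals that cover counting over regions. Members go from 19.1% to 94.0% and lie below the regions within 1 kb of a gene start in all 4 classes. The lowest class includes members called in mutant alone (14.7% of its members).

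Distance into the gene had a median of 51962 bp, with quartiles at 24566 and 120554 bp. Just inside the limit of 10000 bp lay the members in Gm10687 (10004 bp, heights 3 and 13 in mutant and wildtype), Klc2 (10005 bp, 10 and 18) and Fbxo17 (10012 bp, 28 and 77). Just outside lay regions in Cpvl (9979 bp, 7 and 27), Ak1 (9972 bp, 38 and 62) and Kat6a (9959 bp, 17 and 13). Among the 1597 members at 10 to 20 kb the median log2 ratio was -1.15 and 48.5% had a mutant interval. In the bins between, 20 to 50, 50 to 100 and 100 to 200 kb, the medians were -1.14, -1.20 and -1.23. Among the 1264 members above 200 kb the median was -1.34 and 35.0% had one. Wildtype height hardly differed between these bins, with medians of 29 and 28, whereas the mutant medians were 13 and 10. For members with a wildtype height of at least 30 the medians were -1.20 and -1.34, and the shares with a mutant interval 76.7% and 62.9%. Among members called in both libraries the difference between the far and the near bin was -0.046, compared with -0.19 over all members. Far positions exist only in long genes, and gene length moved with the same values: members in genes of 20 to 50 kb had a median of -1.14, and those in genes above 500 kb -1.39. Which of the 2 properties the ratio follows was not tested.

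**Figure D4:**
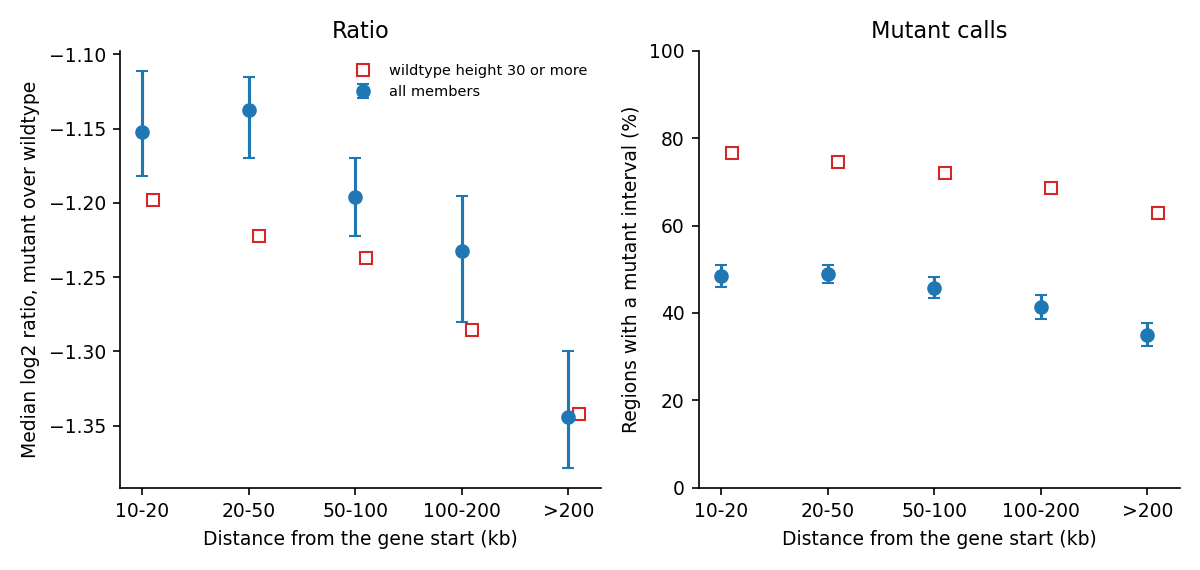
Median log2 ratio of mutant over wildtype height (left) and share of members with a mutant interval in % (right) by distance from the gene start in kb. Filled points are all members with 95% intervals over regions and open squares the members with a wildtype height of at least 30; both measures are lowest above 200 kb.

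The highest members were low beside the highest regions elsewhere: only 2 of the 100 regions of highest mean height were members, and 363 members were among the 2312 regions with a mean height of 50 or more. The member inside Fam129b (Niban2 in RefSeq; 36533 bp from the start) was the highest, at 102 in mutant and 227 in wildtype. Armc9, a gene of a ciliary protein, followed with 93 and 194. Polr3gl, which encodes a subunit of RNA polymerase III, held a member at 85 and 188. Lmtk3, a kinase gene, held one at 82 and 191, and Col18a1, which encodes the basement membrane collagen that gives endostatin, one at 74 and 197. The member inside Scp2, a sterol carrier gene, reached 58 and 206. Members of 73 and 190 in Kif17, 76 and 179 in Dnahc17 and 76 and 173 in 2900026A02Rik completed the list with Sfi1. Sfi1, a centrosome gene, reached 58 and 198 over 4600 bp with no mutant interval. Its mutant height was the highest among members called in wildtype alone, whose median was 8. Members had a median length of 592.5 bp. Whether the input also has signal at Sfi1 was not examined. All 10 were lower in mutant, as were 97.4% of all members and 95.4% of all regions. The log2 ratios of the 10 lay between -1.81 at Scp2 and -1.05 at Armc9.

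The largest ratios towards mutant, among members with an interval and a higher height of at least 29, were at 5 genes of differing function. The member inside Kcnab1, a potassium channel subunit gene, reached 33 in mutant and 5 in wildtype. That inside Arhgap25, a Rac GTPase-activating protein of leukocytes, reached 38 and 6. Iqgap1, an actin-binding scaffold, held a member at 30 and 13, and Ctnnd1, which encodes p120 catenin of adherens junctions, one at 32 and 19. Actn4, which encodes the actin crosslinker alpha-actinin 4, held a member at 46 and 22 (chr7:28931157-28932097, 30653 bp from the start). Of the 43 members at least 2-fold higher in mutant, 41 were called in mutant alone; the other 2 were this one and a member inside Cotl1, a coactosin gene, at 27 and 12. Some of the 43 had very low wildtype heights, such as Palld, the palladin gene, at 12 and 1. Nedd9, a focal adhesion scaffold gene, held one at 21 and 4, and Pdlim5, which encodes a protein of actin bundles, one at 23 and 11. These 4 and the next were named after their values were seen. Arhgap25 also held a member nearer its start at 24 and 79, opposite in direction. A member inside Pcsk7, at 16 and 4, was assigned by the authors to Tagln, the SM22 gene and a known SRF target, as well.

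Towards wildtype, the member inside Efcab6, a calcium-binding protein gene, reached 1 in mutant and 82 in wildtype. Pik3r6, a phosphoinositide 3-kinase subunit gene, held one at 1 and 74. Kif26a, a kinesin family gene, held one at 1 and 57. Cdk14, a cyclin-dependent kinase gene, held one at 1 and 35, and Clip4, a gene of the CLIP family, one at 5 and 104. These 5 had wildtype intervals alone. Their mutant heights lay far under the median of 20 that members called in both reached, and their wildtype heights ranged from 35 to 104.

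Gene lists gave the members by function, and each was read beside the median of -1.20 over all members. The lists share some genes, and an earlier result of these data had shown the actin genes to lie towards mutant, so the following is no independent support for it. Genes of the actin cytoskeleton linked to MRTF held 45 members in 20 of 40 genes, with a median log2 ratio of -0.86 (95% interval over regions -1.05 to -0.62). Of these 45, 10 were higher in mutant (22.2%), 6 had a mutant interval alone (13.3%), 3 passed 2-fold towards mutant (6.67%) and 21 passed it towards wildtype (46.7%). Over all members these shares were 2.20% higher in mutant, 1.51% with a mutant interval alone, 0.508% past 2-fold towards mutant and 65.7% past it towards wildtype. The 6 list members with a mutant interval alone were all among the 10 higher in mutant. They are in the set only through the library in which they are higher, so the shares towards mutant overlap and are not separate results. Among list members called in both libraries the median was -0.86, compared with -1 over all such members. With the libraries scaled the list's median was 0.17, that of all members being -0.18. Among list members of at least the median height the list's median was -1.14, compared with -1.24 over all such members.

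Within the actin list members of the same gene differed in direction. Myh9, the nonmuscle myosin heavy chain gene, held 6 members. At 25972, 41387 and 43111 bp from its start the heights were 18 and 9, 15 and 14, and 22 and 17 in mutant and wildtype. At 59474, 66363 and 79916 bp they were 10 and 38, 47 and 83, and 17 and 27. The 3 members nearer the start were thus higher in mutant and the 3 farther ones lower. Of the nearer 3, those at 25972 and 43111 bp had a mutant interval alone. They are in the set only through the library in which they are higher, so no order by position is read from them. Without Myh9 the list's median was -1. Actn1, alpha-actinin 1, held a member at 14 and 6, with a mutant interval alone, and others at 21 and 39 and at 18 and 30. Besides the member at 46 and 22, Actn4 held one at 23 and 36. Both members of Lmod1, a smooth muscle actin nucleator, were at 14 and 8 with a mutant interval alone.

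The 5 members of highest mean height on the list were all lower in mutant, as were 97.4% of all members. Fhl2, a LIM-domain cofactor gene, held one at 39 and 93, and Mylk, the myosin light chain kinase gene, one at 21 and 78 and another at 15 and 62. With them stood the Myh9 member at 47 and 83 and one of Itga1, an integrin gene, at 20 and 67. Both members of Acta2, the smooth muscle actin gene, were lower in mutant, at 16 and 18 and at 19 and 39. Vcl, vinculin, held members at 14 and 25 and at 12 and 15.

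Focal adhesion genes held 38 members in 20 of 23 genes, with a median of -0.94 (-1.15 to -0.75). Among them Sorbs3, the vinexin gene, held a member at 51 and 128, Itga3, an integrin gene of basal epithelium, one at 43 and 72, and Pxn, paxillin, one at 34 and 58. Lpp held members at 19 and 9 and at 18 and 18. Spectraplakins, spectrins and other large linkers held 83 members in 17 of 20 genes, with a median of -1.09. Plec, plectin, reached 45 and 96, and Macf1, which joins actin and microtubules, 50 and 61. Actin filament turnover genes held 46 members with a median of -1.13. All 46 were lower in mutant, as were 97.4% of all members and 95.4% of all regions. Daam2, a formin gene, reached 58 and 189, Wasf1, a gene of the WAVE complex, 13 and 143, and Coro1c, a coronin gene, 56 and 73.

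SRF and its cofactors held 10 members in 4 of 7 genes, with a median of -1.28. Mkl1, the gene of MRTF-A, reached 25 and 64 in its highest member, and Myocd, myocardin, 9 and 49. The immediate early genes had a median length of 4.29 kb, and their only member lay inside Atf3 (13 and 37). The TGF-beta list held 27 members with a median of -1.03, with Smad6 at 29 and 75. All 27 were lower in mutant, as were 97.4% of all members and 95.4% of all regions. The YAP and TEAD list held 14 with a median of -1.03, with Wwtr1, the TAZ gene, at 15 and 43.

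Cell type lists were included because whole cornea holds epithelium, stroma, vessels at its rim and leukocytes, and SRF binding does not measure which of these cells were present. Corneal epithelium genes held 4 members in 3 of 28 genes: Tkt, transketolase, at 33 and 46 and at 12 and 9, Pkp1 at 17 and 48, and Cdh1 at 24 and 29. Stroma genes held 13 members with a median of -1.13, with Fbln1 at 34 and 103. Vessel genes held 17 with a median of -1.12, with Vwf at 42 and 95 and at 10 and 91. Leukocyte genes held 2, Itgal at 18 and 36 and Itgam at 11 and 13. The part of cell makeup in the ratios was not tested.

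Long neuronal genes, chosen as genes with little known role in the cornea, held 187 members in 42 of 46 genes and stood lowest, with a median of -1.58 (-1.72 to -1.43). Their median heights were 7 in mutant and 24 in wildtype, and 40 of the 187 (21.4%) had a mutant interval, compared with 45.0% of members and 51.0% of all regions. Calls depend on height, and the wildtype median over all members was 29. The listed genes had a median length of 1068 kb. All members in genes above 500 kb had a median of -1.39, and 30.5% had a mutant interval. Whether the list differs from other long genes at like height was not tested. Dlgap1, a synaptic scaffold gene, reached 28 and 80. The plot by list shows that the lists overlap widely.

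**Figure D5:**
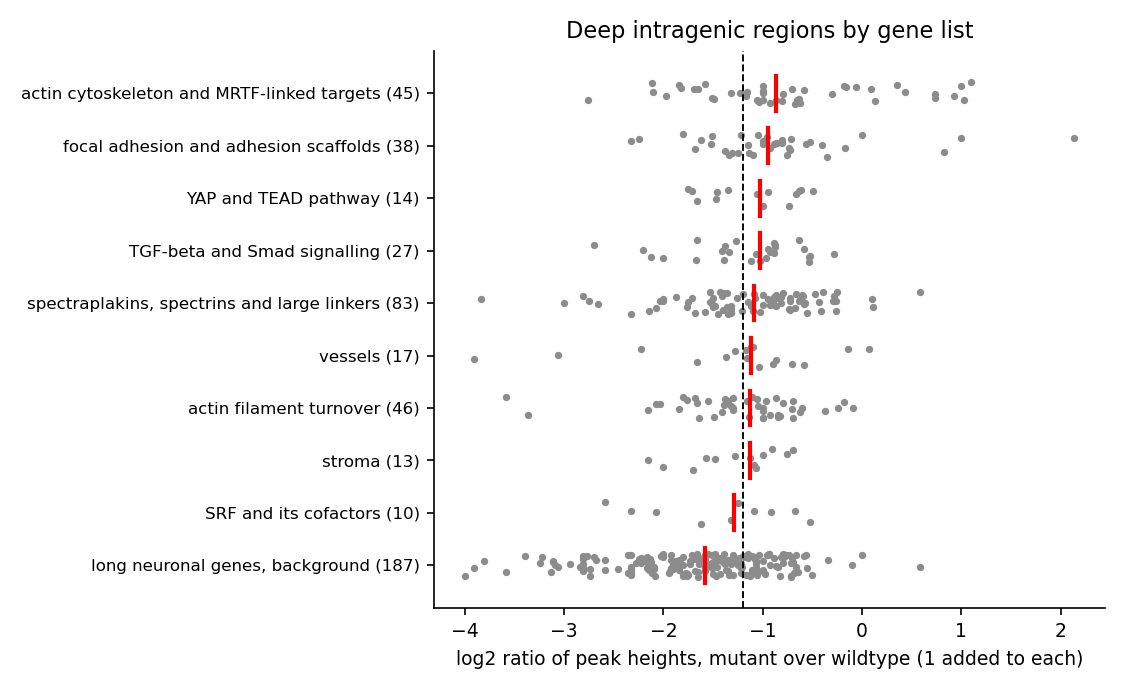
log2 ratio of mutant over wildtype peak height (1 added to each) of the members in each gene list shown, all with at least 5 members, the number of members in brackets. Points are members, red bars list medians and the dashed line the median of -1.20 over all members; the list medians run from -1.58 for long neuronal genes to -0.86 for the actin list.

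The 8472 members lay inside 4739 genes, of which 2826 held 1 member, 1913 held at least 2, 227 at least 5 and 19 at least 10. Neighbouring members of a gene were a median of 17.4 kb apart. Members called in both libraries were found in 2737 genes, and 649 of these held at least 2. Pde4d, a cyclic AMP phosphodiesterase gene, held the most, with 16 members of wildtype heights 15 to 63 and mutant heights 3 to 29, 8 of them called in both. Camta1, a calmodulin-binding transcription activator gene, held 15, with 7 called in both and a median log2 ratio of -1.47. Ank3, the ankyrin-G gene, held 14, whose log2 ratios ran from -3.84 (heights 2 and 42 in mutant and wildtype) to -0.61 (22 and 34). Kalrn, the kalirin gene, held 13, and so did Nav2, a neuron navigator gene with roles in cell migration, and the immunoglobulin kappa locus Igk. In Nav2 12 of 13 members were called in both, with a median log2 ratio of -0.80, whereas in Igk 2 of 13 were, with a median of -2.09. Over all members 43.4% were called in both, and over all regions 48.9%. The median wildtype height was 37 in Nav2 and 22 in Igk, and calls depend on height. The 3 members farthest from a start all lay in Igk, whose listed length includes its variable segments. The noncoding RNA gene 6720401G13Rik (Firre in RefSeq) on chromosome X held 10 members within 79.5 kb, or 12.6 per 100 kb, compared with 1.23 per 100 kb in Pde4d. Their wildtype heights were 15 to 25 and their mutant heights 4 to 14.

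Members of the same gene varied widely. In the 227 genes with at least 5 members the median range of the log2 ratio within a gene was 1.46. Gene medians ran from -2.77 in Csmd1 to -0.22 in Bcr. All 8 members of Csmd1 had a wildtype interval alone, compared with 55.0% of all members and 49.0% of all regions. Their mutant heights were 1 to 11 and their wildtype heights 16 to 48. Rbm20, a splicing regulator of striated muscle, had a median of -2.57 over 8 members. Bcr, the breakpoint cluster region gene, held 5, at 17 and 9, 17 and 12, 58 and 102, 11 and 13, and 26 and 56 in mutant and wildtype. Its 2 members nearest the start were higher in mutant, and its highest member was lower. The member at 17 and 9 had a mutant interval alone and is in the set only through that call.

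The members had a median length of 592.5 bp. Another region lay within 10 kb of 35.6% of them, compared with 66.2% of the regions near the start of their gene and 33.2% of the regions with no assigned gene. Relative to the length of the host gene, 10.9% lay in the part of the gene nearest its start when genes were cut into 4 equal parts, and 38.2% in the part farthest from it. The limit of 10 kb removes early positions in short genes, so these shares do not describe a preference. In members called in both libraries the highest points of the 2 intervals were a median of 16 bp apart, and 90.0% were within 50 bp. The share within 50 bp was 88.5% for regions near the start of their gene, 89.5% for gene-flanking regions and 91.0% for regions with no assigned gene, so it was not particular to the members. For regions within 1 kb of a gene start the median was 32 bp and the share 66.8%. At wildtype heights of at least 30 the shares of the members and of the regions within 1 kb of a gene start were 91.2% and 81.1%, and below 30 they were 85.3% and 46.4%.

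Chromosome X held 180 members, with median heights of 8 in mutant and 19 in wildtype, and 22.8% had a mutant interval, compared with 45.0% of members and 51.0% of all regions. Calls depend on height: of all members with a wildtype height of 15 to 29, 20% had a mutant interval. The median log2 ratio was -1.25 on chromosome X, compared with -1.20 over all members. Chromosome Y held 7 members, with medians of 26 and 43, and 85.7% had a mutant interval. The sex of the mice is not given in the labels used here, and its part in these values was not tested. A microRNA hairpin in RefSeq was overlapped by 4 members. That inside Trib2 overlapped Mir6387 and was higher in mutant, at 12 and 4, with a mutant interval alone. The others overlapped Mir6999 in Dgkz (15 and 49), Mir7020 in Aldh4a1 (28 and 52) and Mir7237 in Banp (9 and 41), and were lower in mutant. Whether members lay in exons or introns, and which motifs they hold away from RefSeq starts, was not analysed here.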

How the data were processed

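The authors deposited SRF intervals called per library, merged regions with signal values of both libraries (the peak value, a whole number called height here, and the average value), and the assigned genes with positions and distances, per the file headers. The submitters' processing notes name BWA and mm10. No source used here names the interval caller, its threshold, a scaling of the 2 libraries, or whether starts count from 0. Genotype was taken from titles.

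Each ratio is the log2 of mutant over wildtype height, both plus 1, and so understates the difference where heights are low. For single members listed at 0 in a library no ratio is printed, but with 1 added they entered the medians and the counts past 2-fold. Shares carry exact binomial and medians order-statistic 95% intervals. Motifs were searched on both strands of RefSeq start windows (GRCm38.p6): the CArG box, the CTCF core, AP-1 (TGANTCA with C or G at N), TEAD (NGAATGN with a purine first and a pyrimidine last), AGATAA for GATA factors, NF-Y (CCAATNN with C or G, then a purine), ETS (CCGGAAGT), E-box (CACGTG) and CRE (TGACGTCA). Host genes were matched by identifier, 4700 of 4739.

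The members, lists and rules were chosen with earlier results of these data known. Named members follow a rule: the 10 highest, the 5 largest ratios each way, the 5 genes with most members, up to 3 per list by mean height and the 3 farthest from a start. The members shown with sequence, those of Myh9, Bcr, Csmd1 and Rbm20, lower members of the lists and those noted as such were named after values were seen. Python 3.11.15, numpy 2.4.6, pandas 2.3.3, scipy 1.17.1 and matplotlib 3.10.9 were used, tested on simulated data. A gene list that was also examined is not reported here.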

Additional observations from a re-analysis of the deposited data

How the results depend on the processing

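No paired analysis was possible because mutant and wildtype are 1 library each. The members' median log2 ratio of -1.20 was -0.91 with the average value, -1 with a pseudocount of 5, -0.18 with scaled libraries, -1 for members called in both and -1.24 with a higher height of at least 29; distances above 20 or 5 kb, 1 member per gene, autosomes alone and leaving out members over RefSeq starts kept it between -1.21 and -1.19. The 5562 members at least 2-fold higher in wildtype became 3520 (average), 994 (scaled), 3076 (stricter height) and 3114 (1 per gene). The 43 at least 2-fold higher in mutant became 27 (average), 22 (pseudocount of 5), 222 (scaled), 4 (stricter height) and 9 (1 per gene); the last 2 settings hold fewer members. The share called in both, 43.4%, was 70.4% with the stricter height and 55.3% with 1 member per gene, and did not change when an interval had to overlap by 50%. Genes with at least 2 members numbered 1913, or 649 among members called in both. A CArG box with 1 mismatch was held by 21.6% of windows instead of 5.41%, compared with 9.98% of all windows. The actin list's median reversed to 0.17 with scaled libraries and was -1.14 with the stricter height. The difference between far and near members, -0.19, was -0.046 among members called in both. The causes were not tested. The actin, distance, autosome and RefSeq start alternatives were chosen after seeing the data. Motif windows of 100 bp and whole regions need a genome sequence and were not run. Without input values, read totals or replicates, depth and signal over background limit every value.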
